A study of Oryctolagus cuniculus with 4 samples.

Results

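The 3 genes KERA, SFRP2 and PDGFRL were followed across 4 spatial gene expression sections of rabbit supraspinatus muscle, as 3 of the 21139 genes listed in each count matrix. They were chosen by name and from earlier results on these same sections, in which KERA and PDGFRL ranked among the leading genes of a connective-tissue group of spots at 16 weeks, so their relation to connective tissue in that section is given as a description. Each gene had 1 entry in the matrix: KERA (ENSOCUG00000013394), SFRP2 (ENSOCUG00000016660) and PDGFRL (ENSOCUG00000005211). All rabbits were skeletally mature female New Zealand White animals without a transgene. One section came from a muscle harvested 2 weeks after its tendon was cut (tenotomy), 1 from a muscle harvested 16 weeks after tenotomy, 1 from a healthy muscle, all 3 of them kept frozen for 6 years, and 1 from a healthy muscle that was frozen but not stored for years. By the sample names the stored healthy and the 16-week muscles were the right and left sides of 1 rabbit, whereas the 2-week and the fresh healthy muscles came from 2 other rabbits. With 1 section per condition no difference could be tested, and every interval below is a 95% interval of counting error only.

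KERA encodes keratocan, a small leucine-rich proteoglycan that binds collagen fibrils and is best known from the corneal stroma, with expression in tendon as well. SFRP2 encodes secreted frizzled-related protein 2, an extracellular protein that binds Wnt ligands, and PDGFRL encodes a receptor-like protein that resembles the ligand-binding part of a platelet-derived growth factor receptor and lacks a kinase. All of these are genes that fibroblasts can transcribe, the cells that lay down the collagen sheaths around muscle fibres and the scar of an injured muscle. COL1A1, the alpha 1 chain of type I collagen, served as the connective-tissue reference, and CIDEA, a lipid-droplet protein of adipocytes, as the fat reference.

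The sections held between 854 spots (2-week) and 2440 spots (stored healthy) and between 4079313 and 12536450 unique molecular identifiers (UMIs, each 1 captured transcript molecule). The median spot held 3590 UMIs in fresh and 5195 in stored healthy muscle, and 4588 at 2 weeks and 2090 at 16 weeks after tenotomy. A spot covers several cells or parts of muscle fibres. Mitochondrial transcripts made up 49.3% and 49.2% of UMIs in the healthy sections against 33.8% and 34.6% after tenotomy. Of 11 genes listed as muscle markers, 5 had an entry, and these made up between 2.36% and 6.75% of UMIs in each section. The 4 sections used 2931 barcodes, of which 512 occurred in all 4, because barcodes are printed positions and not cells.

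As a share of all UMIs, the 3 genes were lowest in the fresh healthy section and higher in both tenotomy sections than in the stored healthy one, an order that changed against the median gene and against matrix genes, as given further on. For KERA 25 UMIs were counted in fresh healthy, 280 in stored healthy, 274 in 2-week and 441 in 16-week tissue, which is 3.56, 22.3, 67.2 and 93.0 CPM (counts per 1000000 UMIs of the section or of the spots named). SFRP2 had 46, 1459, 1808 and 957 UMIs in the same order, or 6.55, 116, 443 and 202 CPM. PDGFRL had 72, 579, 516 and 394 UMIs, or 10.3, 46.2, 126 and 83.1 CPM. KERA was thus highest at 16 weeks, with an interval of 84.5 to 102 CPM that lay above that at 2 weeks (59.4 to 75.6). SFRP2 and PDGFRL were highest at 2 weeks, with intervals of 423 to 464 and 116 to 138 CPM that lay above those at 16 weeks (189 to 215 and 75.1 to 91.7). In each gene, no neighbouring pair in this order of sections had overlapping counting intervals. In spots that pool several cells, fewer cells of a type and less RNA per cell cannot be told apart.

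**Figure D1:**
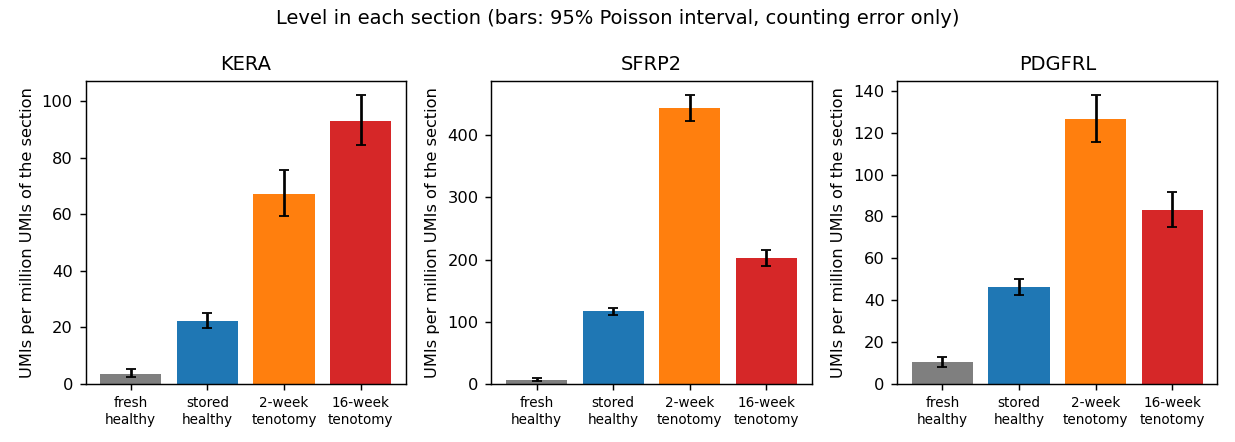
Level of KERA, SFRP2 and PDGFRL in each of the 4 sections, as CPM; bars are 1 section each and error bars are 95% Poisson intervals. KERA is highest in the 16-week section (93.0 CPM), SFRP2 and PDGFRL in the 2-week section (443 and 126 CPM), and all 3 are lowest in the fresh healthy section.

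Set against the stored healthy section, KERA stood apart from the other two at 16 weeks. KERA was 4.16-fold higher in the 16-week section, a log2 ratio of 2.06 (1.84 to 2.28). SFRP2 was 1.73-fold and PDGFRL 1.80-fold higher, log2 ratios of 0.79 (0.67 to 0.91) and 0.85 (0.66 to 1.03). Among the 6025 genes with at least 20 UMIs in the 2 sections together, 46.9% were at least 2-fold higher at 16 weeks, and the median gene had a log2 ratio of 0.93. Relative to that median gene, KERA was higher by a log2 ratio of 1.12, whereas SFRP2 and PDGFRL lay slightly below it, at -0.14 and -0.087. COL1A1 was in the same place as SFRP2 and PDGFRL, at 1.57-fold and a log2 ratio of 0.65 (0.51 to 0.79). Several lists for other cells were also higher at 16 weeks than in the stored section. Macrophage genes summed to 557 against 216 CPM, with 8 of the 10 that could be compared at least 2-fold higher. Vessel-wall genes summed to 418 against 150 CPM and tendon genes to 127 against 40.7. Adipose genes summed to 1337 against 297 CPM, of which LPL made up 1255 and 295. The endothelial sum was 296 against 224 CPM, with 0 of the 3 genes that could be compared at least 2-fold higher. The part of these cells in the levels of the 3 genes was not tested.

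At 2 weeks all 3 genes exceeded the median gene. SFRP2 was 3.81-fold, KERA 3.01-fold and PDGFRL 2.74-fold higher than in the stored healthy section, log2 ratios of 1.93, 1.59 and 1.45. The median of 5686 genes was 0.63, and 27.6% were at least 2-fold higher. COL1A1 was 5.84-fold higher, more than any of the 3. The macrophage sum was 242 CPM at 2 weeks, close to the 216 of the stored section, but its genes moved both ways. Of the 10 macrophage genes that could be compared, 2 were at least 2-fold higher, against 27.6% of all genes, and 1 was at least 2-fold lower. The adipose (626), vessel-wall (336) and tendon (114) sums were higher than in the stored section. LPL made up 619 CPM of the adipose sum and CILP 101 CPM of the tendon sum. Of the 5 tendon genes that could be compared, 1 was at least 2-fold higher and 2 were at least 2-fold lower. The share of all genes at least 2-fold lower was not computed, so these counts are a description. The part of these cells in the levels of the 3 genes was not tested. From 2 to 16 weeks, KERA was 1.38-fold higher (log2 ratio 0.47, 0.25 to 0.69), close to the median gene at 0.32, in a comparison in which 18.1% of genes were at least 2-fold higher. SFRP2 was lower at 16 than at 2 weeks by a log2 ratio of -1.14 (-1.25 to -1.02), PDGFRL by -0.61 (-0.80 to -0.41) and COL1A1 by -1.89 (-2.02 to -1.77).

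In the 3 genes, the 2 healthy sections differed from each other by as much as or more than either tenotomy section differed from the stored healthy one. SFRP2 was 17.6-fold higher in the stored than in the fresh healthy section (13.2 to 24.4), KERA 6.16-fold (4.16 to 9.86) and PDGFRL 4.47-fold (3.52 to 5.83). The intervals of SFRP2 and PDGFRL lay above those of both tenotomy sections, and that of KERA overlapped the 16-week interval (3.58 to 4.85). Only 9.36% of 5756 genes were at least 2-fold higher in that comparison, and the median log2 ratio was -0.11. SFRP2 ranked 38 from the top of those genes, KERA 91 and PDGFRL 143. COL1A1 was 4.92-fold and COL1A2, the partner chain of type I collagen, 4.72-fold higher. The macrophage list moved with them: its 11 genes summed to 51.4 CPM in the fresh and 216 in the stored section, and 10 of the 10 that could be compared were at least 2-fold higher. The vessel-wall list (3 of 6 genes measured) did not, at 179 and 150 CPM. By the sample names the stored healthy muscle came from a rabbit with a tenotomy on its other side. Storage, animal, that tenotomy and the piece of tissue under the slide cannot be told apart here.

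**Figure D2:**
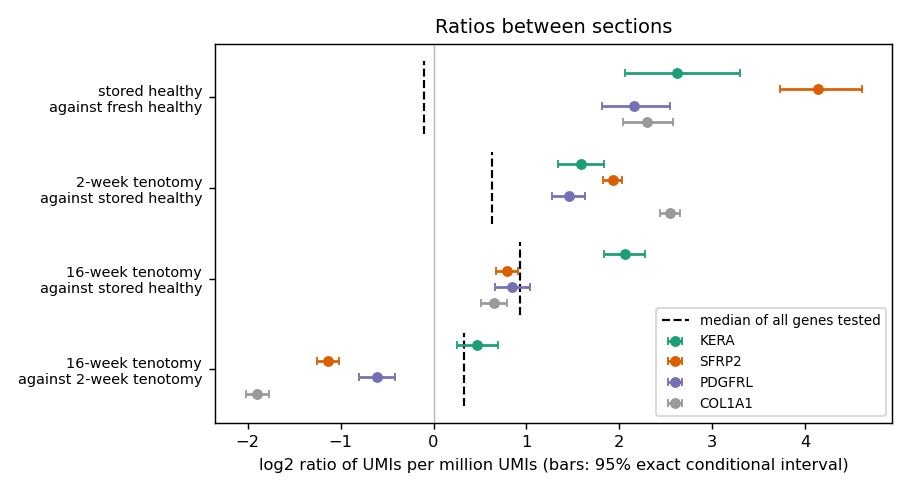
Log2 ratios of KERA, SFRP2, PDGFRL and COL1A1 between pairs of sections, with 95% exact conditional intervals of counting error; the dashed line in each row is the median of all genes tested. All 3 genes lie far to the right of the median gene between the 2 healthy sections, and at 16 weeks against stored healthy only KERA does.

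Read against the sum of a list of matrix genes, the order of the sections changed. The fibroblast and matrix list held 13 measured genes of 20, among them COL1A1, COL1A2, COL3A1, FN1, DCN and LUM. COL3A1 made up 18901 of the list's 57131 UMIs in the stored, 25497 of 57073 in the 2-week and 11273 of 47269 in the 16-week section. COL1A2 made up 12647, 15107 and 8420 in the same order, so the sum leaned on these genes to a different extent in each section. Per 1000 UMIs of that list, KERA had 2.28 UMIs in the fresh, 4.90 in the stored, 4.80 at 2 weeks and 9.33 at 16 weeks. Its share of that sum was thus alike in the stored and 2-week sections (4.34 to 5.51 and 4.25 to 5.40) and higher at 16 weeks (8.48 to 10.2). SFRP2 had 4.20, 25.5, 31.7 and 20.2 UMIs per 1000 in the same order. PDGFRL had 6.58, 10.1, 9.04 and 8.34, with overlapping intervals between the stored and 2-week sections and between the 2-week and 16-week sections. The 3 genes therefore did not hold a fixed ratio to each other: SFRP2 had fewer UMIs than PDGFRL in the fresh section, 46 against 72, and more in the other 3.

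The share of spots with a UMI differed by gene and section. KERA was found in 15 of 1950 fresh, 161 of 2440 stored, 146 of 854 2-week and 249 of 1726 16-week spots, or 0.769%, 6.60%, 17.1% and 14.4% of spots. SFRP2 was found in 1.38%, 24.4%, 53.2% and 26.4% of spots, and PDGFRL in 3.44%, 18.1%, 36.1% and 14.7%. Depth per spot enters these shares, so each spot was also reduced at random to 1000 UMIs, leaving out 266 fresh, 93 stored, 53 2-week and 352 16-week spots with fewer. KERA was then found in 0.297%, 1.92%, 7.24% and 10.1% of spots, so the 16-week section moved above the 2-week one, although the intervals overlapped (5.54% to 9.26% and 8.57% to 11.8%). SFRP2 was found in 0.475%, 8.35%, 25.3% and 15.6% and PDGFRL in 1.01%, 3.96%, 11.2% and 8.22% of thinned spots. At full depth PDGFRL was in a smaller share of spots at 16 weeks than in the stored section, and after thinning in a larger one. SFRP2 also had the largest counts per spot: a 2-week spot held 188 UMIs, which was 10.4% of that section's SFRP2.

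**Figure D3:**
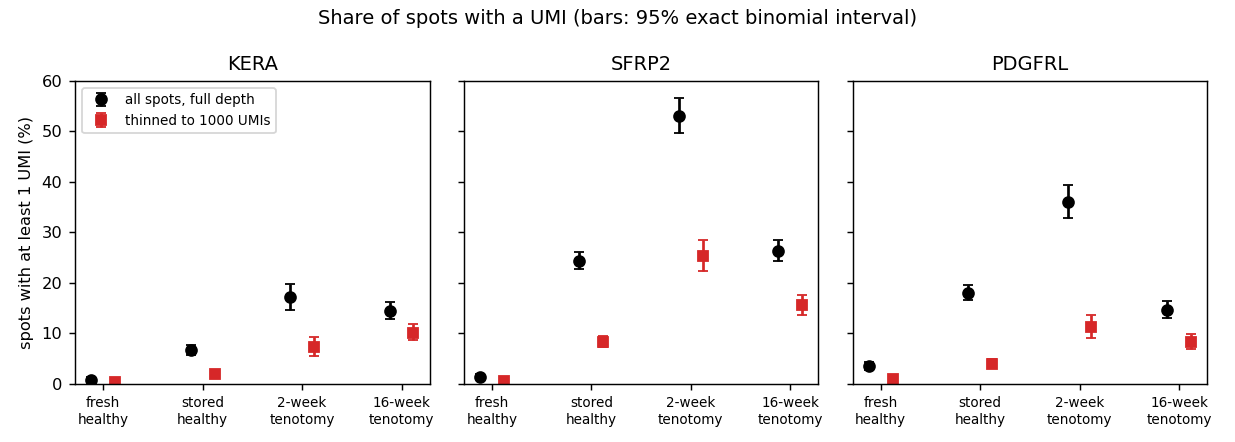
Percent of spots with at least 1 UMI of each gene in the 4 sections, with 95% exact binomial intervals. Black circles are all spots at full depth. Red squares are the spots with at least 1000 UMIs, each reduced to 1000. Full-depth shares for KERA are 17.1% at 2 weeks and 14.4% at 16 weeks, and thinned shares are 7.24% and 10.1%.

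Within every section the 3 genes were higher in spots that held COL1A1, though on few UMIs in the fresh healthy section. At 16 weeks the 382 spots with at least 1 COL1A1 UMI made up 22.1% of spots and 23.0% of UMIs, and held 62.1% of KERA, 58.2% of SFRP2 and 64.2% of PDGFRL UMIs. KERA reached 251 CPM in these spots against 45.7 in the 1344 spots with none, a log2 ratio of 2.45 (2.17 to 2.74). SFRP2 reached 510 against 110 CPM, 2.22 (2.03 to 2.41), and PDGFRL 232 against 38.6, 2.58 (2.28 to 2.89). Of 4715 genes, 12.6% were at least 2-fold higher in these spots, and PDGFRL ranked 10, KERA 13 and SFRP2 29 from the top. KERA and PDGFRL were chosen partly from this section, so these ranks are a description. COL1A2, for comparison, had a log2 ratio of 2.21 and DCN, decorin, 0.98.

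The same held in the sections from other conditions. At 2 weeks the log2 ratios of COL1A1-positive to COL1A1-free spots were 2.02 for KERA (1.42 to 2.75), 1.81 for SFRP2 (1.59 to 2.05) and 1.03 for PDGFRL (0.69 to 1.41), with 9.02% of genes at least 2-fold higher. In the stored healthy section they were 2.18 (1.82 to 2.56), 1.68 (1.53 to 1.84) and 1.27 (1.03 to 1.52), with 11% of genes at least 2-fold higher. In the fresh healthy section they rested on 14, 21 and 12 UMIs in 105 COL1A1-positive spots, and were 4.02 (2.79 to 5.32), 3.44 (2.53 to 4.33) and 1.41 (0.34 to 2.28), with 8.42% of genes at least 2-fold higher. One fresh spot with 11000 UMIs held 4 of these KERA, 7 of the SFRP2 and 4 of the PDGFRL UMIs. Without that spot the log2 ratio was 2.91 for SFRP2 and 0.89 for PDGFRL, values for which no interval was computed. The 8 PDGFRL UMIs left lay in spots with 1 COL1A1 UMI, at 18.5 CPM (7.97 to 36.4). That interval overlapped the 9.21 CPM (7.03 to 11.9) of the COL1A1-free fresh spots. PDGFRL had the smallest of the 3 ratios in the fresh, stored and 2-week sections and the largest at 16 weeks. KERA and PDGFRL were chosen partly from their rank in connective-tissue spots of the 16-week section, so this order is a description only.

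Spots were then split by the number of COL1A1 UMIs. At 16 weeks KERA rose from 45.7 CPM in spots with none to 102 in spots with 1, 277 with 2, 836 with 3 to 4 and 1026 in the 17 spots with 5 or more. PDGFRL followed at 38.6, 112, 249, 717 and 845 CPM and SFRP2 at 110, 307, 488, 1259 and 1932. At 2 weeks the climb was shallower for KERA (20.3, 24.6, 43.5, 82.2 and 191 CPM) and for PDGFRL (71.2, 78.1, 107, 146 and 262). SFRP2 at 2 weeks went from 155 to 360 CPM over the first 4 classes and to 1294 in the 120 spots with 5 or more, a class that included the spot with 188 SFRP2 UMIs. Stored healthy levels ran from 10.6 to 186 for KERA, from 68.7 to 523 for SFRP2 and from 32.0 to 196 for PDGFRL.

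**Figure D4:**
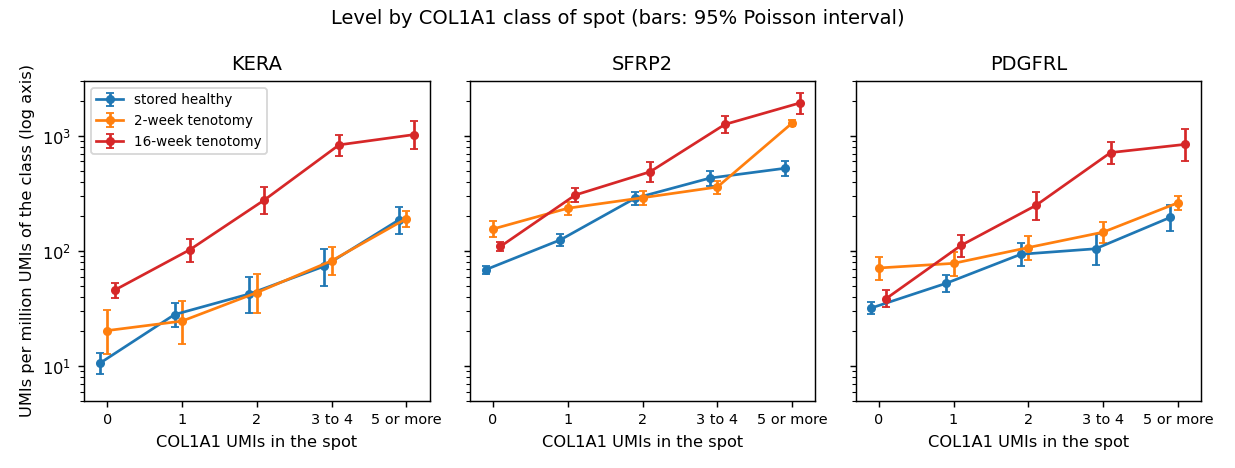
Level of each gene, in CPM on a log axis, in spots grouped by their number of COL1A1 UMIs, for the stored healthy, 2-week and 16-week sections; error bars are 95% Poisson intervals and lines join the classes of 1 section. All 3 genes rise with COL1A1 in each section, and the 16-week KERA and PDGFRL lines end at 1026 and 845 CPM, above the 191 and 262 reached at 2 weeks.

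A count of COL1A1 UMIs means more in a shallow spot than in a deep one. The split was therefore repeated in spots with at least 1000 UMIs, each reduced to 1000. This left out 93 stored, 53 2-week and 352 16-week spots. KERA in COL1A1-positive spots was then at 130 CPM in the stored (82.4 to 195), 171 at 2 weeks (124 to 229) and 559 at 16 weeks (455 to 679). PDGFRL was at 119 (73.4 to 181), 225 (171 to 291) and 480 CPM (384 to 593). SFRP2 was at 763 (639 to 903), 1035 (914 to 1167) and 1011 CPM (869 to 1170), so the 2 tenotomy sections differed by less than the counting error. Of the thinned spots, 179 of 1374 were COL1A1-positive at 16 weeks against 258 of 801 at 2 weeks. The part of this difference in the lower section-wide level of SFRP2 at 16 weeks was not tested. In thinned COL1A1-free spots SFRP2 was at 152 CPM at 16 weeks (131 to 176) and 289 at 2 weeks (246 to 338).

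COL1A1 was sparsely counted, which limits what a COL1A1-free spot is. It had 671 UMIs at 16 weeks where COL1A2 had 8420, 2146 against 15107 at 2 weeks, 1129 against 12647 in the stored and 128 against 1499 in the fresh section, and 74.0% of the COL1A1-free 16-week spots held COL1A2. Whether the COL1A1 gene is annotated to its full 3′ end in the rabbit genome used was not tested, so COL1A1-free means free of counted COL1A1. Several lists for other cells also differed between these spots. In COL1A1-positive against COL1A1-free 16-week spots, the 11 macrophage genes, all detected, summed to 1113 against 390 CPM, the tendon list (6 of 9 measured, all detected) to 299 against 75.6, the vessel-wall list (3 of 6, all detected) to 688 against 338 and the endothelial list (5 of 5, 1 of them at 0 in the positive spots) to 465 against 246. The adipose list (4 of 12, with LEP at 0) was at 1412 against 1314 and the muscle list at 22318 against 27358 CPM. The stored and 2-week sections had macrophage sums of 409 against 128 and 281 against 135, and the fresh section 55.4 against 51.1. The part of these cells in the levels of KERA, SFRP2 and PDGFRL was not tested.

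The 3 genes often shared spots. At 16 weeks 77 spots held all 3, and these 4.46% of spots carried 42.6% of KERA, 34.9% of SFRP2 and 44.7% of PDGFRL UMIs. Because these spots were picked by UMIs of the same genes, shares above 4.46% are built in, and no expected share was computed. COL1A1 was found in 60 of these 77 spots (77.9%, 67.0% to 86.6%), in 55.8% of the 154 spots with 2 of the genes, in 23.7% of the 418 with 1 and in 12.7% of the 1077 with none. At 2 weeks 70 spots held all 3 and COL1A1 was in every one of them, against 45.3% of the 278 spots with none. The stored healthy section had 54 such spots, 41 with COL1A1, and the fresh healthy section 2. PDGFRL was in 42.2% of KERA-positive 16-week spots (36.0% to 48.6%) and in 10.0% of the others. SFRP2 was in 55.4% of KERA-positive spots (49.0% to 61.7%) and in 21.5% of the others.

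At 16 weeks the relation to CIDEA was of another kind than that to COL1A1. CIDEA had 15, 11 and 27 UMIs in the fresh, stored and 2-week sections and 343 at 16 weeks, where 275 spots (15.9%) were positive. KERA was at 65.8 CPM in these spots and at 98.4 in the 1451 without CIDEA, a log2 ratio of -0.57 (-1.03 to -0.16). SFRP2 was at 184 against 205 CPM, -0.16 (-0.43 to 0.09), and PDGFRL at 74.7 against 84.7, -0.17 (-0.61 to 0.22), both with intervals that include 0 and with values of 0.55 and 0.12 after thinning to 1000 UMIs. The median of 4715 genes was 0.14 and 4.69% were at least 2-fold higher. The adipose list without CIDEA summed to 1854 CPM in CIDEA-positive and 1147 in CIDEA-free spots. Of its 2 genes that could be compared, 0 were at least 2-fold higher. The fibroblast and matrix list summed to 10018 against 9954 CPM and the muscle list to 23990 against 26639. How far the CIDEA-positive spots consisted of fat was not tested. In the 54 spots with 2 or more CIDEA UMIs, KERA was at 25.4 CPM (6.92 to 65.0), SFRP2 at 76.2 (39.4 to 133) and PDGFRL at 50.8 (21.9 to 100).

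Both references together sorted the 16-week spots. In the 206 spots with CIDEA and no COL1A1, KERA was at 27.5 CPM, SFRP2 at 101 and PDGFRL at 27.5. In the 1138 spots with neither they were at 49.2, 111 and 40.7, in the 69 spots with both at 174, 415 and 207, and in the 313 spots with COL1A1 alone at 269, 533 and 237. CIDEA-positive spots had less KERA than CIDEA-free spots both among spots with COL1A1 (log2 ratio -0.61, -1.18 to -0.12) and among spots without (-0.80, -1.68 to -0.09). For SFRP2 the 2 values were -0.35 (-0.71 to -0.03) and -0.12 (-0.56 to 0.27), and for PDGFRL -0.18 (-0.70 to 0.28) and -0.53 (-1.42 to 0.19). COL1A1 was found in 25.1% of CIDEA-positive and 21.6% of CIDEA-free spots.

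**Figure D5:**
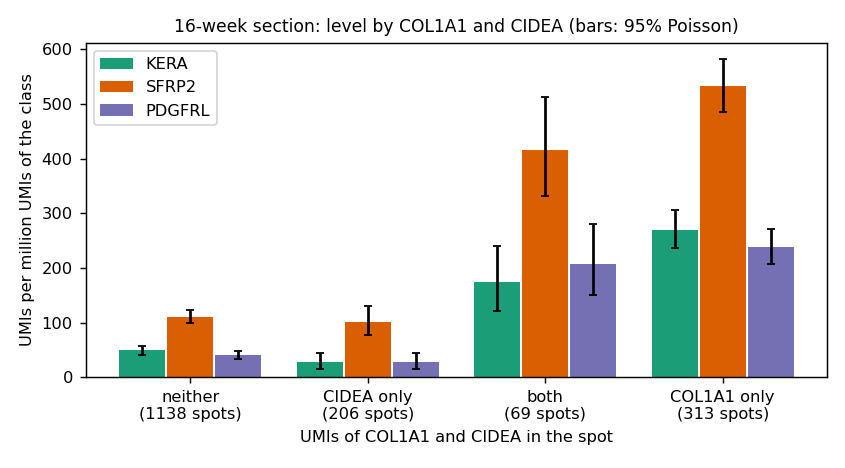
Level of KERA, SFRP2 and PDGFRL in the 16-week section in spots that held neither COL1A1 nor CIDEA, CIDEA alone, both, or COL1A1 alone, in CPM with 95% Poisson intervals. Spots with CIDEA alone have KERA at 27.5 CPM and spots with COL1A1 alone at 269.

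At 2 weeks 22 of the 24 CIDEA-positive spots held COL1A1 (91.7%, 73.0% to 99.0%), against 543 of the 830 others (65.4%). KERA was at 203 CPM in them on 23 UMIs, against 63.3 in the others, a log2 ratio of 1.71 (0.99 to 2.30). One spot held 11 of those 23 UMIs, and without it the log2 ratio was 0.88 (-0.14 to 1.66), an interval that includes 0. SFRP2 was at 969 against 428 CPM, 1.18 (0.89 to 1.46), and PDGFRL at 326 against 121, 1.45 (0.91 to 1.92), while COL1A1 itself had a log2 ratio of 1.41. Among COL1A1-positive spots alone the ratios were 1.49 for KERA (0.78 to 2.09), 0.92 for SFRP2 (0.61 to 1.2) and 1.36 for PDGFRL (0.81 to 1.83). Of 4122 genes 28.7% were at least 2-fold higher, a share that fell to 17.8% among genes with at least 100 UMIs. The adipose list without CIDEA summed to 3029 against 550 CPM in the same spots. In the CIDEA-positive spots that sum was LPL alone, as 2 of the 3 measured genes were at 0 there. The vessel-wall list summed to 1180 against 312 CPM. The part of these cells in the levels of the 3 genes was not tested. The 14 fresh CIDEA-positive spots held 0 KERA, 1 SFRP2 and 0 PDGFRL UMIs and the 11 stored ones held 2, 6 and 1, too few for a ratio.

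Across single spots the relations were modest. Spearman's rho with COL1A1 at 16 weeks (1726 spots) was 0.33 for KERA, 0.32 for SFRP2 and 0.36 for PDGFRL, and with CIDEA it was -0.05, 0.01 and -0.01. At 2 weeks (854 spots) rho with COL1A1 was 0.34, 0.43 and 0.36, and in the stored healthy section (2440 spots) 0.17, 0.22 and 0.23. In the fresh healthy section it was 0.14, 0.11 and 0.07. After thinning to 1000 UMIs, rho with COL1A1 was 0.31, 0.34 and 0.28 at 16 weeks, above the 0.19, 0.22 and 0.17 at 2 weeks, and it was 0.14, 0.13 and 0.086 in the stored and 0.16, -0.0090 and -0.013 in the fresh section. Spots of 1 section share a library and differ in depth, and most hold a count of 0, so these are descriptions.

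The genes most like each of the 3 across spots were ranked by Pearson's r of log2 values per spot among genes with at least 100 UMIs. Between 2 and 5 of each set of 5 named here were also among the closest 5 after thinning to 1000 UMIs, with 2 for SFRP2 at 2 weeks. At 16 weeks, out of 1740 genes, KERA was closest to FNDC1 (r = 0.46), which encodes a fibronectin type III domain protein, then to MMP2, a matrix metalloproteinase, COL1A2, AEBP1, which encodes a collagen-binding protein, and COL1A1. SFRP2 was closest to COL1A2 (0.46), FNDC1, AEBP1, MMP2 and COL3A1, and PDGFRL to MMP2 (0.43), FNDC1, COL1A2, COL1A1 and SFRP2. CIDEA ranked 1572, 1296 and 1384 in these 3 orders. At 2 weeks (1355 genes) SFRP2 was the gene closest to KERA (0.43), ahead of FNDC1, COL3A1, COL1A2 and COL1A1. SFRP2 itself was closest to COL1A2 (0.56), COL3A1, COL1A1, FN1 and LUM, and PDGFRL to COL3A1 (0.43), COL1A2, DCN, LUM and MGP. In the stored healthy section (1997 genes) KERA and SFRP2 were each the other's closest gene (0.41), and PDGFRL was closest to COL1A2 (0.31). The remaining 4 for KERA there were FNDC1, COL11A1, COL1A2 and MYOC, for SFRP2 COL1A2, DCN, FN1 and IGFBP6, and for PDGFRL SFRP2, AEBP1, DCN and IGFBP6.

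Family members of the 3 genes gave a measure of how far each moved with its kin. Of 14 small leucine-rich proteoglycan genes 12 had an entry, and all 9 that had at least 20 UMIs in the 16-week and stored healthy sections together were at least 2-fold higher at 16 weeks, against 46.9% of all genes, with KERA at the median of the list (2.06) and the median of all genes at 0.93. OGN, osteoglycin, was 6.76-fold, ECM2 4.42-fold, DCN 2.67-fold and LUM, lumican, 2.28-fold higher. At 2 weeks 4 of 8 were at least 2-fold higher than in the stored section, against 27.6% of all genes. These were KERA (3.01-fold), OGN (3.54-fold), ECM2 (2.50-fold) and EPYC, epiphycan (11.9-fold on 48 against 12 UMIs), whereas DCN was 1.56-fold and LUM 1.85-fold higher. In COL1A1-positive 16-week spots KERA had a larger log2 ratio (2.45) than LUM (1.32), DCN (0.98) or OGN (0.77). KERA was chosen partly from this section, so this difference is a description.

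SFRP2 had few measured relatives. Of 41 genes listed for secreted frizzled-related proteins and Wnt signalling 31 had an entry, and 7 of these had no UMI in any section. SFRP4 had 1, 0, 1 and 0 UMIs and SFRP5 0, 2, 0 and 3 in the fresh, stored, 2-week and 16-week sections. FRZB, a further secreted Wnt-binding protein, had 153, 164, 135 and 27 UMIs. FRZB was 2.53-fold higher at 2 weeks than in the stored section (2.00 to 3.20), as SFRP2 was in direction, and at 16 weeks it was lower by a log2 ratio of -1.18 (-1.85 to -0.61) while SFRP2 was at 0.79. Among the ligands WNT5B had 183, 162, 101 and 126 UMIs, or 26.1, 12.9, 24.8 and 26.6 CPM. WNT11 had 73, 77, 22 and 66 UMIs, or 10.4, 6.14, 5.39 and 13.9 CPM. Among the receptors FZD4 had 9, 23, 11 and 21 UMIs, or 1.28, 1.83, 2.70 and 4.43 CPM. At 16 weeks against the stored section 7 of the 9 genes of this list that could be compared were at least 2-fold higher, against 46.9% of all genes. SFRP2 was among the 9 but not among the 7, and FRZB was the 1 that was at least 2-fold lower. Some of the 7 rested on few UMIs, such as FZD1 on 6 in the stored and 20 in the 16-week section.

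The platelet-derived growth factor list had 5 of 7 genes with an entry. PDGFRL was its most counted gene in each of the 4 sections. PDGFRB, a receptor with a kinase, had 4, 8, 2 and 15 UMIs, and the ligand genes PDGFC 9, 12, 16 and 18, PDGFD 1, 4, 1 and 7 and PDGFB 3, 5, 0 and 0 in the fresh, stored, 2-week and 16-week sections. These counts are too low to set beside PDGFRL across sections or spots.

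The richest single spots held the 3 genes together with collagens. The 2-week spot with 188 SFRP2 UMIs had 9616 UMIs in all, with 607 of COL1A2, 581 of COL3A1, 138 of COL1A1, 9 of PDGFRL and 6 of KERA, and 12.1% of its UMIs were mitochondrial. The 2-week spot richest in KERA held 11 KERA, 8 SFRP2, 4 PDGFRL, 16 COL1A1 and 3 CIDEA UMIs. At 16 weeks the spot richest in KERA held 10 KERA, 6 SFRP2 and 2 PDGFRL UMIs, and the spot richest in PDGFRL held 10 PDGFRL, 4 KERA and 1 SFRP2 UMI. In the stored healthy section the 3 spots richest in SFRP2 held 48, 37 and 36 SFRP2 UMIs with 5, 3 and 6 of KERA. The stored spot with most PDGFRL, 8 UMIs, held 10 of COL1A1 and 0 of KERA and SFRP2.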

How the data were processed

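The authors deposited raw UMI counts per spot and gene for each section, made with Space Ranger 1.2.0 and the rabbit genome OryCun2.0 with Ensembl release 104 genes. Reads were taken from the 3′ end of transcripts, so levels were compared between sections and spots rather than between genes. KERA, SFRP2 and PDGFRL, the gene lists and the named genes were chosen with earlier results of these data known. Genes named were the 3, COL1A1, CIDEA, their families, the most counted genes of each list, and the 5 genes with the highest Pearson's r per gene and section.

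Levels are CPM, UMIs per 1000000 UMIs of all genes in a section or class of spots. Intervals at 95% are exact Poisson for UMIs, Clopper-Pearson for shares and exact conditional for ratios, with 0.5 UMI added before a log2 ratio. They cover counting error only. Ratios were formed for genes with at least 20 UMIs in both groups together. Thinning drew 1000 UMIs per spot once (seed 1). Positive spots held at least 1 UMI. No clusters were built and no doublet caller was run. The scripts were tested on simulated data. Alternatives were other denominators, thresholds, thinning depths and spot filters. Python 3.11.15, numpy 2.4.6, scipy 1.17.1 and pandas 2.3.3 were used. The paper's figure legend places the sections on a slide and its methods on slides, so a shared slide is not certain. No spatial coordinates were used here. Ranks count the genes tested from the highest ratio. One list of marker genes is not reported here.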

Additional observations from a re-analysis of the deposited data

Results flagged for a closer look

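The contrast of CIDEA-positive to CIDEA-free spots ran in opposite directions for KERA after tenotomy. Its log2 ratio was 1.71 (0.99 to 2.30) at 2 weeks, on 23 KERA UMIs in 24 positive spots, and -0.57 (-1.03 to -0.16) at 16 weeks, on 52 KERA UMIs in 275 positive spots. Both intervals exclude 0, and the difference between the sections was not tested. At 2 weeks 11 of the 23 KERA UMIs lay in 1 spot, and without it the ratio was 0.88 (-0.14 to 1.66), which includes 0. Among COL1A1-positive spots alone the ratio was 1.49 (0.78 to 2.09) at 2 weeks and -0.61 (-1.18 to -0.12) at 16 weeks.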

How the results depend on the processing

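Direction depended on scaling for ratios between sections. Without mitochondrial genes the log2 ratios of KERA, SFRP2 and PDGFRL were 1.69, 0.43 and 0.48 for 16-week against stored healthy and 1.21, 1.55 and 1.07 for 2-week against stored healthy. Scaled to the median gene, an alternative chosen after seeing the data, they were 1.12, -0.14 and -0.087 at 16 weeks, 0.96, 1.30 and 0.82 at 2 weeks, and 0.14, -1.46 and -0.93 for 16-week against 2-week. Scaled to the sum of the fibroblast and matrix list, also chosen after seeing the data, they were 0.93, -0.33 and -0.28 at 16 weeks. On that scale they were -0.030, 0.31 and -0.16 at 2 weeks, 1.08, 2.59 and 0.61 for stored against fresh, and 0.96, -0.65 and -0.12 for 16-week against 2-week. Without the richest spot of the gene, chosen likewise, SFRP2 was at 1.82 for 2-week against stored and -1.01 for 16-week against 2-week.

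Shares of spots are given in the order fresh, stored, 2-week, 16-week. With at least 2 UMIs they were 0.205%, 2.25%, 6.32% and 5.56% for KERA, 0.308%, 10.1%, 32.0% and 10.8% for SFRP2 and 0.154%, 3.77%, 12.8% and 4.69% for PDGFRL. Thinned to 1000 UMIs they were 0.297%, 1.92%, 7.24% and 10.1%, then 0.475%, 8.35%, 25.3% and 15.6%, then 1.01%, 3.96%, 11.2% and 8.22%. Thinned to 500 UMIs they were 0.112%, 1.47%, 4.13% and 6.78%, then 0.280%, 4.20%, 17% and 11.4%, then 0.561%, 2.35%, 6.56% and 5.28%.

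Log2 ratios of COL1A1-positive to COL1A1-free spots kept their direction in every alternative that gave a value. Counted from 3 COL1A1 UMIs they were 6.53, 6.12 and 4.13 in the fresh (on 5 spots), 3.52, 2.77 and 2.17 in the stored, 2.77, 2.48 and 1.55 in the 2-week and 4.29, 3.75 and 4.29 in the 16-week section. Thinned, they were 2.98, 2.94 and 1.64 in the stored section, and 2.73 and 2.90 for SFRP2 and PDGFRL at 16 weeks. For CIDEA, counting from 3 UMIs gave 4.75, 1.56 and 2.47 at 2 weeks on 1 spot, thinning gave 0.55 for SFRP2 at 16 weeks, and spots without COL1A1 gave 2.09 for SFRP2 at 2 weeks on 2 CIDEA-positive spots. Without the spot richest in KERA, chosen after seeing the data, KERA at 2 weeks was at 0.88. In thinned fresh spots the 28 COL1A1-positive spots held 0 SFRP2 and 0 PDGFRL UMIs, against 9 and 17 in the 1656 others. KERA had 4 UMIs against 3 there. No ratio was formed where either group held 3 UMIs or fewer, which left out these fresh spots and several CIDEA splits. The cause of these shifts was not tested. No replicate could be left out, since each condition had 1 section. No paired analysis was possible because only 1 pair of sections, the stored healthy and the 16-week one, came from the same rabbit.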

Other observations

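Among the 6 measured genes of the tendon list, COL11A1 and TNMD followed another order of sections than KERA, SFRP2 and PDGFRL, and both were chosen after their values were seen. COL11A1, a fibrillar collagen chain, had 8 UMIs in fresh, 125 in stored, 15 in 2-week and 176 in 16-week tissue. In the same order this was 1.14, 9.97, 3.68 and 37.1 CPM. TNMD, tenomodulin, a tendon marker, had 6, 81, 1 and 35 UMIs, or 0.855, 6.46, 0.245 and 7.38 CPM. Both were thus high in the stored healthy and 16-week sections and low in the fresh and 2-week ones, whereas KERA, also a tendon gene, had 274 UMIs at 2 weeks. Animal, piece of tissue and condition cannot be told apart here. COL12A1, at 1.28, 3.67, 6.62 and 12 CPM, and THBS4, at 1.42, 2.23, 2.94 and 12.6 CPM, had the same order of sections as KERA. MKX had 0, 4, 0 and 7 UMIs, found in the same sections in which COL11A1 and TNMD were high, but on few UMIs. CILP, the remaining gene of that list, had 70, 226, 411 and 267 UMIs, with its highest CPM at 2 weeks, as for SFRP2 and PDGFRL.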
